A study of Helianthus annuus with 12 samples.

Results

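A set of 1059 siRNAs of sunflower (Helianthus annuus) was listed in every leaf library and in no root library, out of 15055 siRNAs and 15900 named small RNA features in the deposited count table. They were chosen by their counts: at least 10 reads in all 6 leaf libraries and 0 in all 6 root libraries. The submitters' table held no siRNA count from 1 to 9, so a 0 can stand for up to 9 reads. "Seen only in leaves" is therefore a description of where these siRNAs were listed. The leaf and root counts themselves made the choice and are given without a test, whereas the difference between PEG and control leaves was not used. The minimum of 10 counts in every leaf library does bound that difference for scarce siRNAs, since neither a large decrease nor an increase from a low control level leaves 10 counts in all 6.

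The libraries came from seedlings of R5, a cultivar the submitters call drought tolerant, grown to the 4-leaf stage. PEG seedlings were kept for 24 h in 15% polyethylene glycol (PEG) 6000, which makes water harder for roots to take up, and control seedlings in distilled water. There were 3 libraries each of PEG leaf, control leaf, PEG root and control root. The labels do not say whether a library is 1 plant or a pool, nor that replicates were separate plants, so spreads and adjusted p-values describe these libraries and may be technical. In whole organs, fewer cells that hold an siRNA and less of it per cell cannot be told apart. The table lists small RNAs only, so the organ labels could not be checked against protein-coding marker genes.

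Plant siRNAs are short RNAs cut by Dicer-like enzymes from double-stranded RNA and loaded into Argonaute proteins. Many arise from transposons and other repeats and guide DNA methylation there, while others, such as trans-acting siRNAs, arise from transcripts first cut by a microRNA and direct the cleavage of other messenger RNAs. Which of these kinds each sunflower siRNA belongs to is not given, and their sequences, lengths and genome positions were not analysed here.

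Total counts ranged from 30922418 to 33426228 in leaf libraries and from 20829490 to 27248037 in root libraries. The gap was wider for siRNAs, with 1715895 to 2069703 counts in leaves and 280561 to 937641 in roots. The lowest of these was control root replicate 3, whose TMM factor (a scaling factor from the trimmed mean of log ratios between libraries) was also the lowest at 0.292.

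The leaf-listed set was one corner of a broad range of patterns. Of all siRNAs, 8047 were at 0 in all 6 roots and above 0 in at least 1 leaf library, and 2810 of these appeared in 1 leaf library alone. Of the 5239 siRNAs with at least 10 counts in every leaf library, 20.2% were at 0 in every root, 476 were above 0 in 1 root library and 1182 were above 0 in all 6. The opposite pattern was rare in number: 42 siRNAs had at least 10 counts in every root library and 0 in every leaf library, which was 3.05% of the 1376 siRNAs with at least 10 counts in every root.

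**Figure D1:**
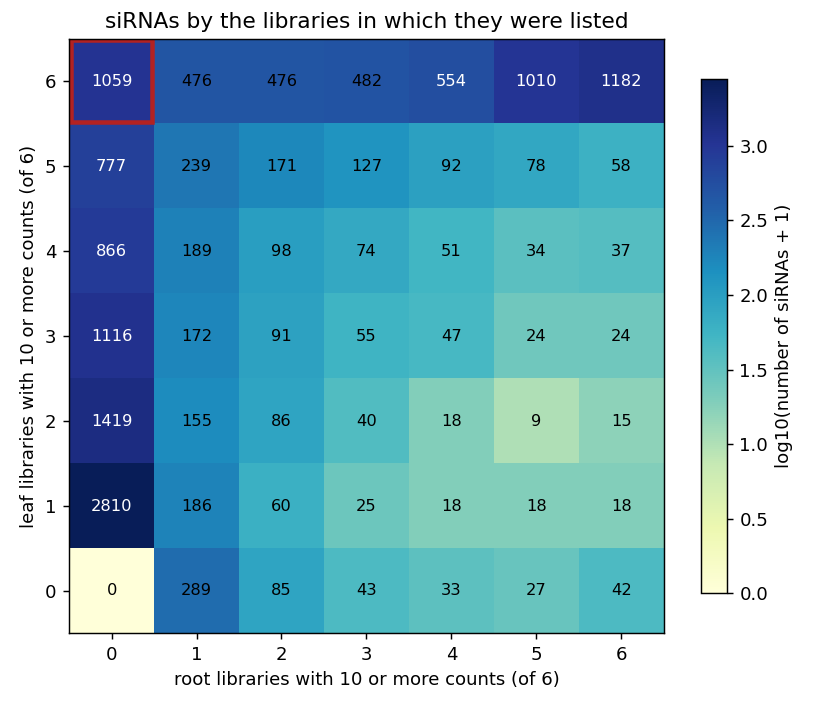
Number of siRNAs by how many of the 6 root libraries (horizontal axis) and how many of the 6 leaf libraries (vertical axis) listed them with 10 or more counts; shading is log10 of the number plus 1. The boxed corner holds the 1059 siRNAs described here, and the opposite corner, in all roots and no leaf, holds 42.

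Most of the 1059 were scarce even in leaves. Their mean count over the 6 leaf libraries had a median of 22.5 and quartiles of 17.6 and 34.5, and ranged from 11.2 to 2248. Of them 735 (69.4%) averaged under 30 counts, 76 averaged at least 100 and 36 at least 200. The 4180 other siRNAs with at least 10 counts in every leaf library had a median of 56.1 and a highest mean of 128527. Within the set, the 10 most abundant siRNAs held 20.7% of its leaf counts and the 100 most abundant 50.5%.

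Whether a leaf siRNA was at 0 in all roots varied with how abundant it was in leaves. Among siRNAs with at least 10 counts in every leaf library, 67.1% of those averaging 10 to under 15 leaf counts were at 0 in all roots (100 of 149). The share was 33.1% at 20 to under 30 counts (332 of 1002), 8.23% at 50 to under 100 (82 of 996) and 4.54% at 200 or more (36 of 793). Over the same classes the share above 0 in all 6 roots was 1.34%, 3.69%, 19.8% and 76.0%. These shares describe the same leaf and root counts that made the choice, from the same 12 libraries, and carry no test. Low leaf counts went with membership, and siRNA coverage was shallower in roots than in leaves. The part of either in membership was not tested.

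**Figure D2:**
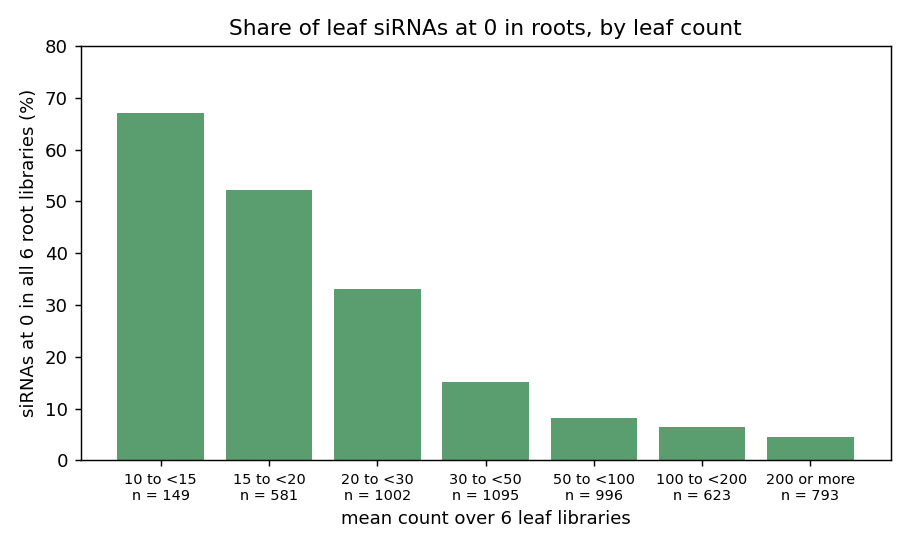
Share of siRNAs at 0 in all 6 root libraries (percent, bars) by their mean count over the 6 leaf libraries, among the 5239 siRNAs with at least 10 counts in every leaf library. The bars run from 67.1% in the lowest class to 4.54% in the highest.

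The siRNAs just inside and just outside the rule show how close its edges lie. novel_sir9987 was the scarcest member, with 12, 11 and 11 counts in PEG leaves and 12, 10 and 11 in control leaves. novel_sir2719 (13, 10 and 12 in PEG leaves, 12, 11 and 11 in control leaves) and novel_sir7352 (12, 10 and 12, against 13, 12 and 10) were similar, and 166 members touched 10 counts in at least 1 leaf library. Outside, 777 siRNAs missed the rule through a single leaf library. The most abundant of them, novel_sir4970, held 140, 150 and 295 counts in PEG leaves and 201, 0 and 213 in control leaves. novel_sir14706 (61, 227 and 166 in PEG leaves, 217, 0 and 135 in control leaves) and novel_sir12856 (14, 78 and 249, against 161, 0 and 73) were at 0 in control leaf replicate 2 as well.

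On the root side, 476 siRNAs missed the rule through a single root library, in which they held 10 to 30 counts with a median of 12. The most abundant, novel_sir12008, held 1178, 1288 and 1725 counts in PEG leaves and 2085, 821 and 1719 in control leaves, against 11 counts in control root replicate 2 and 0 in the other roots. novel_sir11636 had a mean leaf count of 695.0 and 17 counts in control root replicate 1. novel_sir11517 had a mean of 402 and 13 counts in PEG root replicate 1. The single root library was PEG root replicate 1, 2 or 3 for 99, 150 and 159 of these siRNAs, control root replicate 1 or 2 for 50 and 18, and control root replicate 3 for 0.

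Because a root 0 may hide 9 reads, the organ difference can only be bounded from below. The bound was the mean leaf level divided by the mean root level that 9 counts in each root library would give, both in CPM (counts scaled to a library of 1000000). With TMM scaling the root ceiling was 3.52 CPM and the median member stood at 3.06 CPM in leaves, a bound of 0.869. For 652 of the 1059 (61.6%) the bound was 1 or less, so for these the counts do not show a higher level in leaves than in roots on that scale. The bound was above 1 for 407 members, above 2 for 144 and above 10 for 22. PEG and control libraries of each organ were pooled in it. The 22 include novel_sir8104 (described below), which averaged 148 CPM in PEG leaves and 6.47 CPM in control leaves.

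The bounds moved with the scaling. Relative to all reads of the library, including those in entries that name no small RNA, the median bound was 1.83, it was above 1 for 1052 members and above 10 for 60. Relative to counts in named features the median was 1.57, with 982 members above 1 and 53 above 10. With TMM but without control root replicate 3, whose ceiling of 7.73 CPM was the highest of the roots, the median was 1.14, with 666 above 1 and 36 above 10. The 22 members above 10 with TMM were also above 10 relative to all reads and to named features, and these held 28.6% of the counts of the set.

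**Figure D3:**
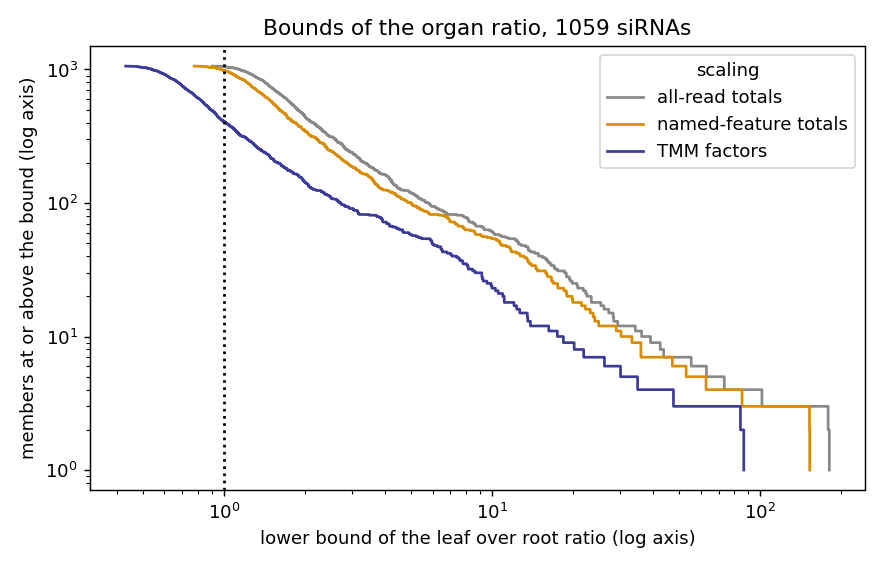
Number of members (vertical, log axis) whose lower bound of the leaf over root ratio reaches the value on the horizontal log axis, with 3 scalings of the libraries. The dotted line marks a ratio of 1, which 407 members exceed with TMM factors, 982 with named-feature totals and 1052 with all-read totals.

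The 5 most abundant members had bounds far from 1 on every scale tried. novel_sir4168 held 1945, 1779 and 3334 counts in PEG leaves and 2073, 1662 and 2696 in control leaves. It was at least 86.9-fold higher in leaves than in roots with TMM scaling and at least 181-fold relative to all reads, and it ranked 104 among the siRNAs with at least 10 counts in every leaf. novel_sir10392 held 1803, 1783 and 2024 counts in PEG leaves and 3026, 2435 and 2198 in control leaves. Its bound was at least 84.4-fold with TMM and at least 179-fold relative to all reads, and its PEG libraries all lay below its control libraries.

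novel_sir15930 varied more between replicates of a group, with 494, 688 and 1709 counts in PEG leaves and 1712, 2167 and 772 in control leaves, and a TMM bound of at least 47.5-fold. novel_sir12076 was steadier, with 1095, 800 and 999 counts in PEG leaves and 973, 867 and 705 in control leaves, and a bound of at least 34.9-fold. novel_sir5913 held 587, 484 and 1202 counts in PEG leaves and 692, 717 and 1025 in control leaves, with a bound of at least 30.2-fold. Both groups overlapped for these 3, as they did for novel_sir4168. At the other end, the scarcest member, novel_sir9987, had a bound of 0.430 with TMM and 0.906 relative to all reads, so its counts do not show an organ difference on either scale.

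As a whole the set held 0.147%, 0.143% and 0.159% of all reads in PEG leaves and 0.165%, 0.152% and 0.145% in control leaves, which is 0.149% ± 0.00821 and 0.154% ± 0.00989 (SD, n = 3 each). Of siRNA reads it held 2.57% ± 0.00973 in PEG leaves and 2.53% ± 0.168 in control leaves. PEG and control libraries overlapped in each of these shares.

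The comparison of PEG with control leaves asks which of these siRNAs respond when the seedling's water supply is limited. No member passed: edgeR called 0 of 1059 at an adjusted p under 0.05, as it called 0 of all 10604 tested features (0%). Without adjustment, 1 member was higher and 2 were lower at a p under 0.05, against 1.9% higher and 1.7% lower of all tested features and 0.574% and 0.407% of the other siRNAs with at least 10 counts in every leaf. DESeq2 called 1 member, against 0.321% of all tested features and 0.0718% of those other siRNAs. limma voom also called 1, against 1.71% and 0.0478%, and in both cases the member was novel_sir8104. DESeq2 gave no adjusted p to some features, the scarce member novel_sir9987 among them, and its shares count these as not called.

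The fit over all 12 libraries estimates spread over all tested features, some of which are at 0 in 1 leaf library and at 10 or more counts in another. Its common dispersion was 1.09, and 0.283% of members had an unadjusted p under 0.05. Members are at 0 in all roots, so only their leaf libraries inform their own spread in this fit. The part of either in these values was not tested. In a fit chosen after seeing the data, of the 6 leaf libraries and the 5459 features with at least 10 counts in each, the common dispersion was 0.134. There 41 members had a higher and 27 a lower level with an unadjusted p under 0.05, or 3.87% and 2.55%. This stood against 3.48% and 3.57% of all features in that fit and 2.51% and 3.8% of the other siRNAs, and again 0 features passed after adjustment. The median half-width of the 95% interval of a member's log2 fold change was 1.62 in the first fit and 0.73 in the second. Changes smaller than these could not be told from 0 for the median member. The intervals are not adjusted for the number of features, and some larger changes, described below, did not pass after adjustment either.

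Log2 fold changes of members were mostly small. Their median was 0.07, against 0.03 for all tested features and 0.04 for the other siRNAs with at least 10 counts in every leaf, and 97.5% of members lay between -1 and 1, against 96.2% of those other siRNAs and 77.1% of all tested features. Library totals without TMM gave members a median of -0.05 and all features -0.07, so the sign of these medians depends on scaling. Overlap was judged on TMM-scaled CPM, here and for the siRNAs named. The PEG and control libraries did not overlap for 73 members that were higher and 49 that were lower, or 6.89% and 4.63%. This stood against 6.21% and 5.51% of all tested features and 5.96% and 6.2% of those other siRNAs. Among the 76 members averaging at least 100 leaf counts, a group taken after seeing the data, 12 (15.8%) were higher and 4 (5.26%) lower without overlap. Of the other siRNAs of that abundance 5.07% were higher and 6.49% lower, and of all tested features 7.12% and 6.2%; the difference between these shares was not tested.

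**Figure D4:**
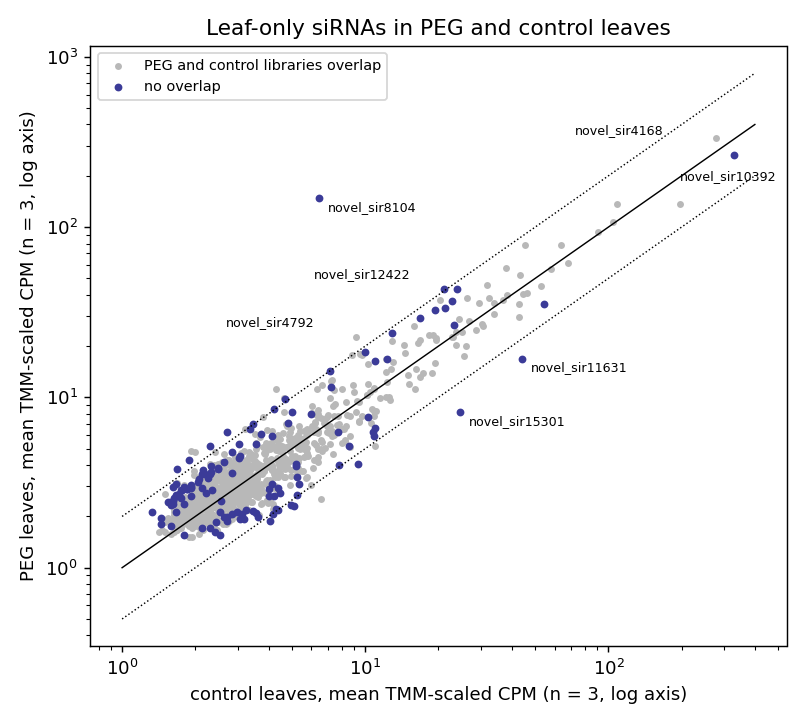
Mean level of each of the 1059 siRNAs in PEG leaves (vertical) against control leaves (horizontal), in TMM-scaled CPM on log axes, n = 3 each. The solid line marks equal levels and the dotted lines a log2 fold change of 1 and -1; dark points are members whose PEG and control libraries do not overlap, and novel_sir8104 lies far above the upper dotted line.

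novel_sir8104 had the largest difference in the set. It held 568, 756 and 1795 counts in PEG leaves, against 21, 26 and 102 in control leaves, and 0 in every root. Every PEG leaf library lay well above every control leaf library, and within each group replicate 3 was the highest. Its mean was 148 ± 94.2 CPM in PEG leaves and 6.47 ± 6.07 CPM in control leaves (SD, n = 3 each), and it ranked 3 in the set in PEG leaves, against 159 in control leaves. The log2 fold change was 4.51 (SE 0.92, 95% interval 2.27 to 6.76), with an adjusted p = 0.703 in edgeR over all features, adjusted p = 0.504 in the leaf fit, adjusted p = 0.00119 in DESeq2 and adjusted p = 0.00419 in limma voom. Over all settings tried its adjusted p ranged from 0.00119 to 1, so its call depended on the setting, whereas its log2 fold change ranged from 3.82 to 5.63, the lowest without PEG leaf replicate 3 and the highest without control leaf replicate 3. With control roots and PEG roots both at 0, this siRNA gave no value for a PEG effect in roots.

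The other members with the smallest p went both ways. novel_sir15301 held 36, 83 and 53 counts in PEG leaves and 240, 194 and 138 in control leaves, and novel_sir11631 held 70, 190 and 92, against 392, 330 and 304. For both, every PEG library lay below every control library. Their log2 fold changes were -1.57 (SE 0.53, adjusted p = 0.949, edgeR) and -1.38 (SE 0.53, adjusted p = 1), and -1.62 and -1.43 in the leaf fit (adjusted p = 0.544 and 0.629). They kept this sign in every setting tried.

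novel_sir12422 was at 239, 199 and 480 counts in PEG leaves and very even in control leaves at 161, 169 and 161, without overlap and with a log2 fold change of 1.05 (adjusted p = 1, edgeR). novel_sir4792 held 80, 140 and 256 counts in PEG leaves and 66, 97 and 53 in control leaves, with overlap and a log2 fold change of 1.30 (adjusted p = 1). Neither passed.

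**Figure D5:**
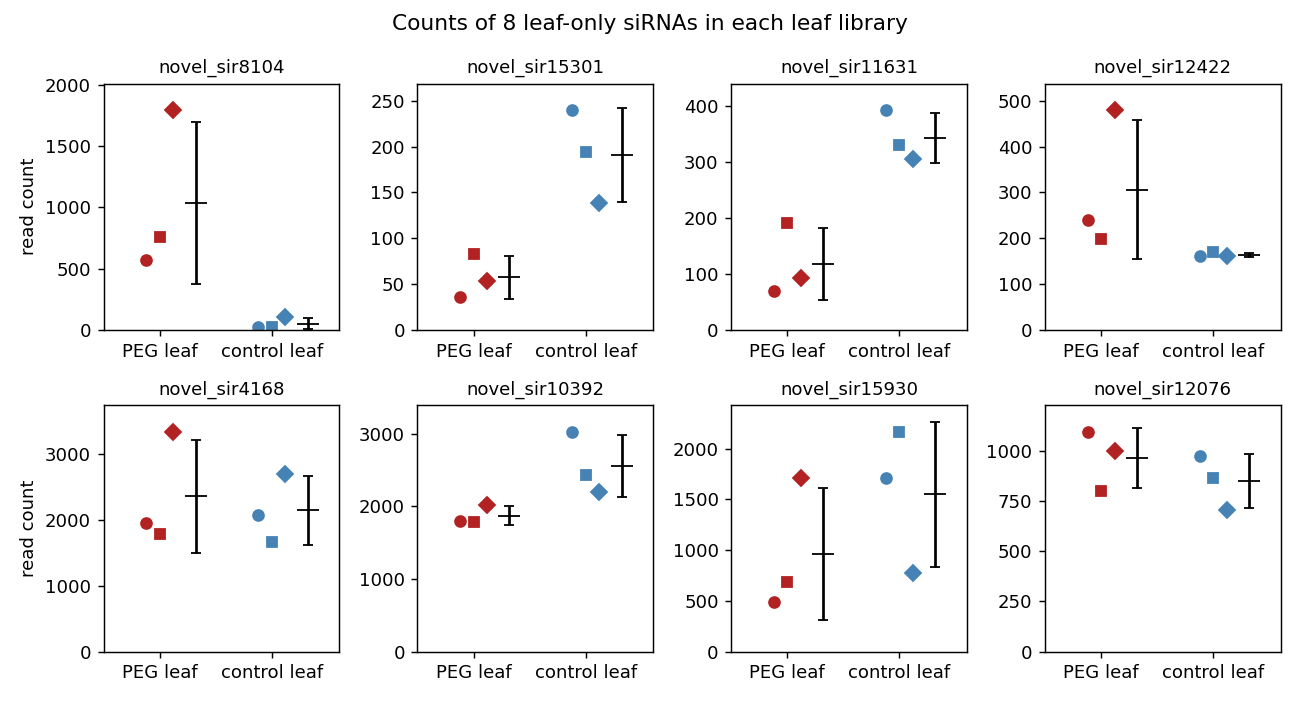
Read counts of 8 siRNAs in each leaf library, PEG leaves left and control leaves right in each panel (circle, square and diamond are replicates 1, 2 and 3; the bar is the mean with SD, n = 3). The upper row holds members with small p in the PEG comparison and the lower row abundant members; novel_sir8104 lies at 568 to 1795 counts in PEG leaves and 21 to 102 in control leaves.

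Further members without overlap and with a mean leaf count of at least 20 numbered 42 higher and 33 lower, of 656 such members, counting those already named. These are 6.4% and 5.03%, near the 6.7% and 5.88% of all tested features of that abundance. Next after novel_sir8104 came novel_sir2057, with 42, 35 and 55 counts in PEG leaves and 14, 20 and 29 in control leaves (log2 fold change 1.20). novel_sir11835 (46, 19 and 26 in PEG leaves, 11, 14 and 19 in control leaves) and novel_sir11409 (23, 31 and 55, against 21, 20 and 13) had log2 fold changes of 1.17 and 1.16. The counts of novel_sir11835 meet at 19, and its groups are apart only after TMM scaling. novel_sir12342 held 73, 77 and 57 counts in PEG leaves and 39, 22 and 47 in control leaves (1.07). Apart from novel_sir8104, these values sit near the upper edge of the set, of which 17 members exceeded a log2 fold change of 1.

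On the lower side, novel_sir12160 held 11, 37 and 37 counts in PEG leaves and 58, 109 and 53 in control leaves (log2 fold change -1.19). novel_sir2521 held 23, 14 and 12 in PEG leaves and 54, 35 and 30 in control leaves (-1.14). novel_sir9639 held 16, 10 and 14 in PEG leaves and 28, 45 and 23 in control leaves (-1.10). Each had an adjusted p = 1 in edgeR, and 9 members in all lay below -1.

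The spread between replicate leaf libraries was set beside that of the other siRNAs with at least 10 counts in every leaf. For members averaging under 30 counts the median coefficient of variation was 25.5% in PEG leaves and 23.5% in control leaves, against 25.3% and 25.5% for other siRNAs of that abundance. Their variance relative to Poisson counting had a median of 1.21 in PEG leaves and 1.10 in control leaves. Other siRNAs of that abundance had medians of 1.34 and 1.42. The means were higher, at 1.83 and 1.69 for these members, against 2.26 and 2.42. With 3 libraries the median of this ratio lies below 1 under Poisson counting alone, so these medians do not show a spread close to pure counting. In both sets the minimum of 10 counts in every leaf library trims the variance. For members averaging 30 or more, the median coefficient of variation was 31.8% in PEG leaves and 25.9% in control leaves, against 26.0% and 23.8% for other siRNAs. The variance relative to Poisson counting went the other way, with medians of 4.94 and 3.67 times for these members, against 5.97 and 5.70 times. This class has no upper limit of abundance, and the sets were not matched within it.

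The machinery that makes and uses siRNAs is itself under microRNA control, as known from Arabidopsis, and the table holds 11 names from the families miR162 (which targets DICER-LIKE1 transcripts), miR168 (ARGONAUTE1), miR403 (ARGONAUTE2) and miR390 (which triggers trans-acting siRNAs from TAS3 transcripts). None of the 10 tested names passed in PEG leaves in edgeR, 1 had an unadjusted p under 0.05, and their median log2 fold change was 0.43. miR168a-5p stood at 26549 ± 7973 CPM in PEG leaves and 22034 ± 3697 in control leaves (log2 fold change 0.27), and miR403-3p_1 at 324 ± 34.2 and 262 ± 18.8 (0.31). miR390a-5p stood at 92.1 ± 4.08 CPM in PEG leaves and 111 ± 23.4 in control leaves (-0.27). The other tested names of that family, miR390 and miR390e, had log2 fold changes of 1.62 and 0.69, with 22 counts or fewer in each leaf library. miR168, miR168b-3p and miR168b_1 had log2 fold changes of 0.55, 0.21 and 1.27. miR162-3p held 46, 916 and 3271 counts in PEG leaves and 66, 19 and 18 in control leaves (log2 fold change 5.49, adjusted p = 0.703), while the near-identical name miR162a-3p held 1257, 63 and 107, against 1453, 1315 and 641 (-1.13). How reads were divided between these 2 names is uncertain.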

How the data were processed

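The authors deposited raw read counts per small RNA feature in each library and the same values in TPM, per the file headers. The TPM values equalled the count scaled to a column total of 1000000 within 0.0051 in 98.7% of cells above 0 and were not used further. Bowtie2 2.2.9 and Bowtie are named, without a role, per the submitters' processing notes. The genome build and mapping settings are not given in those sources. Of 15903 entries, 3 name no feature (exon, intron and intergenic totals, 79.7% to 86.0% of reads) and stayed out of tests and scaling.

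Counts were fitted in R 4.3.3 with edgeR 4.0.16 (TMM factors, glmQLFit, glmQLFTest), a mean per group over 12 libraries, for features that reached 10 counts in 3 or more libraries. P-values were adjusted over all 10604 by the Benjamini-Hochberg method, with a threshold of 0.05. Alternatives were other scalings and filters, DESeq2 1.42.0, limma 3.58.1 (voom), leaf libraries alone, zeros set to 9, a replicate block and leaving out each library. The fit was also run on simulated counts, with a dispersion set below the common dispersion of 1.09 in the main fit. That run does not measure the power of the fit on these data. Leaf and root levels were compared by lower bounds only.

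Named siRNAs are the 5 most abundant, the 5 with the smallest p, the 5 highest and 5 lowest log2 fold changes among members without overlap and with a mean leaf count of at least 20, and the 3 members with the lowest counts, with ties broken by the mean; 3 more stand for each side just outside the rule. Members and lists were chosen with earlier results of these data known.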

Additional observations from a re-analysis of the deposited data

How the results depend on the processing

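The number of siRNAs that meet the rule was 290 with at least 20 counts in every leaf library and 1836 with at least 10 counts in 5 of 6 leaf libraries, against 1059, and 1059 to 1322 with the rule applied without 1 library. The median lower bound of the leaf over root ratio, 0.869 with TMM, was 2.61 with a floor of 3 counts, 1.57 with named-feature totals, 1.83 with all-read totals and 1.14 without control root replicate 3; it ranged from 0.849 to 1.14 with single libraries left out. The log2 ratio of the summed share of members in PEG over control leaves ranged from -0.09 to 0.01 with single leaf libraries left out. edgeR's count of 0 features in PEG leaves became 34 with DESeq2, 181 with limma voom, 37 with zeros set to 9 and 0 to 1 with single libraries left out, the 1 without control root replicate 3. The count of 0 members became 1 with DESeq2, 1 with limma voom and 1 with zeros set to 9, and stayed at 0 with each single library left out. The causes were not tested.

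Of 20 named members, 17 kept the sign of their log2 fold change in all settings. These include the members picked for a small p or a large change in the same libraries, which made a kept sign likely. Those that changed sign were picked for abundance or low counts. The count therefore does not measure how stable the direction is in the set. novel_sir5913 changed sign to -0.137 with library totals, -0.101 with all-read totals, -0.0395 with limma voom, -0.00415 with zeros set to 9, -0.0881 and -0.0409 with the replicate block (leaf libraries and all libraries) and -0.0805 with the block in the leaf fit, and ranged from -0.460 to 0.273 with single libraries left out. In the leaf fit it was -0.511, -0.0708 and -0.0722 without PEG leaf replicate 3, control leaf replicate 1 and control leaf replicate 2. novel_sir4168 ranged from -0.0656 to 0.494 with single libraries left out, below 0 without PEG leaf replicate 3 only, which gave -0.115 in the leaf fit. novel_sir7352 turned to -0.0385 with library totals, -0.0361 with all-read totals and -0.0261 in the leaf fit without control leaf replicate 3. Same-numbered PEG and control leaf libraries did not deviate together over members (correlations of -0.32, -0.01 and -0.19 for numbers 1, 2 and 3). Libraries with different numbers gave -0.09 to 0.30. Such correlations cannot decide whether the design paired the samples. With the replicate block 0 features and 0 members were called. Distances between members were not computed, since no positions were used. Both results have limits: a root 0 can stand for up to 9 reads, and the median member had 22.5 leaf counts.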
